A study of Mus musculus with 6 samples.

Results

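The miR-101 family was followed in tumours of Hepa1-6-bearing mice, through its 3 members mmu-miR-101a-3p, mmu-miR-101b-3p and mmu-miR-101c, chosen by name among the 1881 mouse miRNAs of the array. C57BL/6 mice carried flank tumours of Hepa1-6 cells, a mouse hepatoma line, and the labels give their age as 28 d. In the GLE group, 3 mice received GLE, a treatment the labels do not spell out, with a daily total of 0.023 g stated for a 10 g mouse. In the model group, the other 3 mice received 0.2 ml of 0.9% saline once a day for 28 days. The age and the days of saline hold the same number, so the time point meant by the age label stays unclear. No length of treatment was stated for the GLE group. Cy3-labelled total RNA of a tumour went onto 1 one-colour Agilent miRNA array, so each group held 3 arrays.

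miRNAs are short RNAs that guide silencing complexes to messages, mainly by pairing through the seed, the bases from position 2 to position 8. miR-101 is known for repressing Ezh2, the histone methyltransferase of the Polycomb repressive complex that silences genes, and also targets the survival factor Mcl1 and the transcription factor Fos. It is widely described as growth-restraining in liver cancer.

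The mature sequences are shown because the 3 members are offset copies of nearly the same letters. All 3 matched RefSeq entries (GRCm38.p6), and the seeds are in capitals.
miR-101a-3p: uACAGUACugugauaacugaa
miR-101b-3p: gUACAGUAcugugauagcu
miR-101c: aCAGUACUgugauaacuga
miR-101a-3p comes from Mir101a (chr4:101346957-101346977, minus strand), miR-101b-3p from Mir101b (chr19:29135338-29135356, plus strand) and miR-101c from Mir101c (chr9:3038680-3038698, minus strand). The 19 bases of miR-101c are identical to bases 2 to 20 of miR-101a-3p. miR-101b-3p starts 1 base earlier, shares a run of 15 bases with miR-101a-3p and then carries A16G, counted from the 5′ end of miR-101a-3p. As annotated, the 3 members therefore have 3 different seeds, each shifted by 1 base from the next.

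The array probes decide what each name measures, so they are shown with their DNA letters, and the capitals mark the run that is complementary to miR-101a-3p.
miR-101a-3p, shorter probe: TTCAGTTATCACAGTACTGT
miR-101a-3p, longer probe: TTCAGTTATCACAGTACTGTA
miR-101c, shorter probe: TCAGTTATCACAGTACTG
miR-101c, longer probe: TCAGTTATCACAGTACTGT
miR-101b-3p, shorter probe: agcTATCACAGTACTGTA
miR-101b-3p, longer probe: agcTATCACAGTACTGTAc
Both miR-101c probes lie wholly within the complement of miR-101a-3p. Of the 4415 probes on the array, 4 are wholly complementary to miR-101a-3p, and these are the probes of miR-101a-3p and miR-101c. A molecule of miR-101a-3p can thus pair in full with either miR-101c probe, and signal under the 2 names cannot be told apart by sequence. The probes of miR-101b-3p match miR-101a-3p over 15 letters. With other miRNAs the longest complementary run of any member's probe was 9 to 11 letters, over 1679 mature RefSeq entries. The files place the longer miR-101a-3p probe at chr4:101019601-101019620 (mm9, a span 1 base shorter than its letters) and list the probes of miR-101b-3p and miR-101c as unmapped.

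On all 6 arrays miR-101a-3p and miR-101c were detected, while miR-101b-3p was detected on none. A probe was taken as detected on an array if the share of its unflagged spots lying well above background exceeded 0.5. For miR-101a-3p, all 177 used spots were well above background. For miR-101c, 165 of 176 were, with all spots in GLE tumours and the 11 others in 2 model tumours. Its share of spots well above background was 89.7% in model replicate 2 and 71.4% in model replicate 3.

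For miR-101b-3p, 0 of 175 used spots were well above background. The mean signal of its probes reached 9.68 intensity units in GLE tumours (replicate 2) and 7.44 in model tumours (replicate 1). The authors' deposited table likewise holds its column's lowest value for miR-101b-3p, except in GLE replicate 2 at −1.73. The 15 letters shared with miR-101a-3p thus went with no detected signal on these probes. A probe that misses its target's signal and a tumour without the miRNA cannot be told apart here. The opposite arms of the same hairpins, miR-101a-5p and miR-101b-5p, had 0 of 163 and 0 of 174 used spots well above background, and they were not tested.

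**Figure D1:**
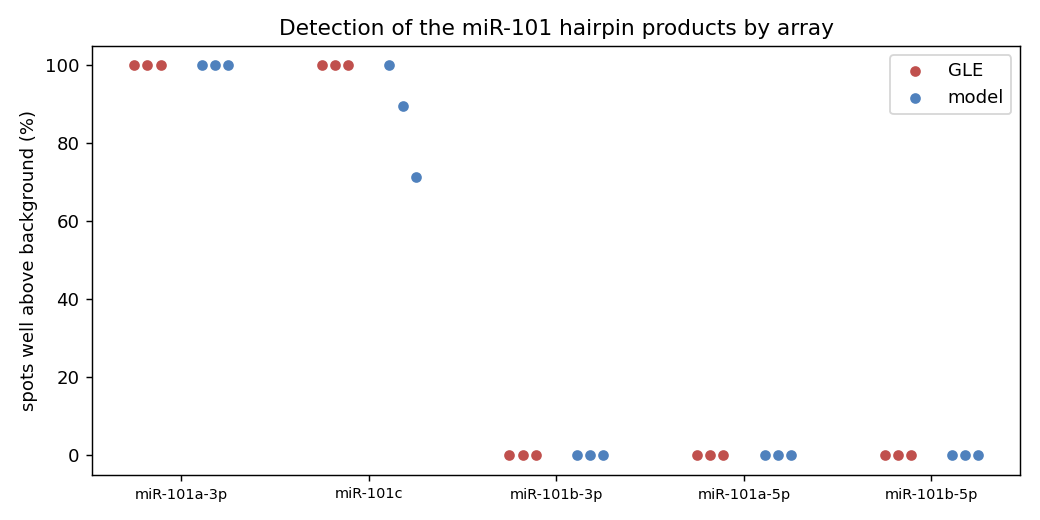
The percentage of used spots well above background (y axis) is plotted for 5 products of the miR-101 hairpins (x axis), with 1 point per array, GLE left of model. miR-101a-3p stands at 100% on all 6 arrays and miR-101c at 71.4% to 100%, while the other 3 products stand at 0%.

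Levels are given as log2 of the processed signal relative to the array's 75th percentile among the 636 probes that every array detected, with the mean taken over the 2 probes of a miRNA. They are relative levels, in which fewer cells holding a miRNA and less of it per cell cannot be told apart. Across GLE replicates 1 to 3 the level of miR-101a-3p was −1.63, −1.81 and −1.52, set against −2.00, −2.04 and −2.01 across model replicates 1 to 3. All GLE tumours lay above all model tumours, and the model tumours stood close together. Across GLE replicates 1 to 3 the level of miR-101c was −2.85, −3.04 and −2.80, set against −3.29, −3.22 and −3.29 across model replicates 1 to 3. Here too the groups did not overlap, and GLE replicate 2 was again the GLE tumour nearest to the model tumours. Among the 388 miRNAs tested, 18, or 4.64%, had all GLE values above all model values, and the 2 tested members were among them.

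The GLE minus model difference of miR-101a-3p was 0.36 ± 0.16 (log2, SE of the limma fit, n = 3 each), a 1.29-fold level with a 95% interval of 0.99 to 1.67. That of miR-101c was 0.37 ± 0.16, again a 1.29-fold level with an interval of 1.00 to 1.67. Since both names can read the same molecules, these are not 2 independent observations. With Benjamini-Hochberg adjustment over the 388 miRNAs, limma called neither difference (adjusted p = 0.937 for both). The unadjusted limma p was 0.0565 for miR-101a-3p and 0.0503 for miR-101c. In that fit 0% of the tested miRNAs passed the adjusted threshold of 0.05, and 1.55% had an unadjusted p under it. An exact permutation test over the 20 relabelings of the arrays gave p = 0.1 for each member (two-sided), the smallest p that 3 against 3 arrays allow. miR-101a-3p averaged −1.65 ± 0.14 in GLE tumours, against −2.02 ± 0.021 in model tumours, and miR-101c averaged −2.90 ± 0.13 in GLE tumours, against −3.27 ± 0.042 in model tumours (SD, n = 3 each). For both members the spread among GLE tumours exceeded that among model tumours. Other tested miRNAs showed this too, so it is not particular to the members, and its share over all miRNAs was not counted.

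**Figure D2:**
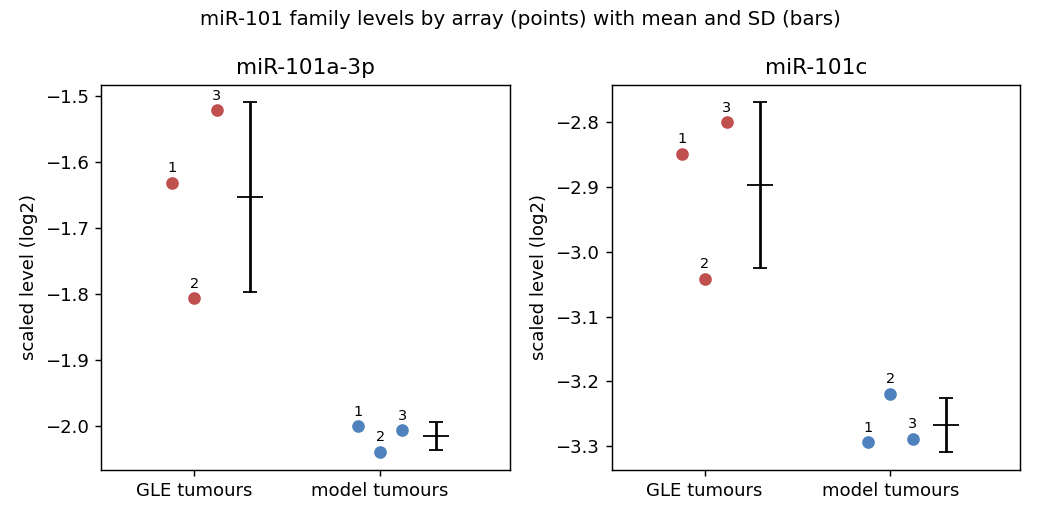
The scaled level (log2, y axis) of miR-101a-3p (left) and miR-101c (right) is plotted for each numbered array, GLE left of model, with bars for the mean and SD of 3 arrays. The lowest GLE value, in replicate 2, lies above the highest model value in both panels, by 0.19 for miR-101a-3p and by 0.18 for miR-101c.

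The size of the difference and the separation of the groups varied with both the background correction and the scaling. Normexp background correction started from the mean spot signal instead of the processed signal, added an offset of 50 intensity units and set no floor. For scale, the processed signals ran from 14.4 to 115 over these probes. With normexp the difference was 0.17 for miR-101a-3p and 0.084 for miR-101c, and the groups overlapped. Without scaling between arrays it was 0.44 and 0.45, and the groups overlapped. With the 75th percentile over all probes it was 0.27 and 0.28, and with quantile normalisation 0.27 and 0.29, and the groups did not overlap.

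**Figure D3:**
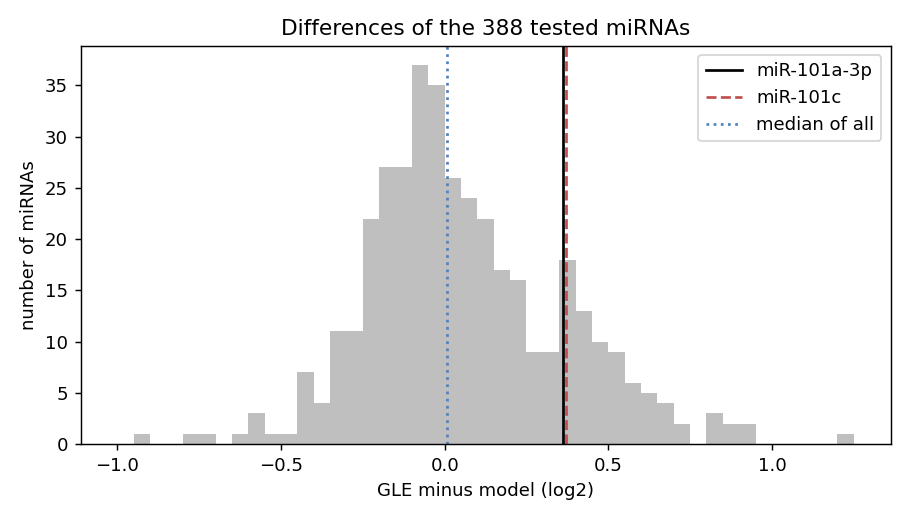
The GLE minus model difference (log2, x axis) is plotted as a histogram over the 388 tested miRNAs (y axis, number of miRNAs). The lines of miR-101a-3p (0.36) and miR-101c (0.37) stand right of the median of all (0.0078) and inside the middle 95%, which runs from −0.43 to 0.70.

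The 4 probes behind the 2 detected members gave nearly the same difference. The shorter and longer probe of miR-101a-3p differed between groups by 0.36 and 0.37, and those of miR-101c by 0.37 and 0.37. The shorter miR-101c probe was not detected on model replicate 3, with 6 of 14 used spots well above background, and entered through its detection on all 3 GLE arrays. Centred on its own mean, each probe ranged over 0.49 to 0.53 across the 6 arrays, while on a single array the 4 probes lay within 0.078 of each other. The level of miR-101a-3p minus that of miR-101c, a contrast read only for its change between arrays, averaged 1.24 ± 0.031 in GLE tumours, against 1.25 ± 0.062 in model tumours (SD, n = 3 each). Its GLE minus model difference was −0.0084, less than the spread in either group (two-sided exact permutation p = 0.8, 1 pair compared, so the adjusted p is also 0.8). Over the 6 arrays this contrast had an SD of 0.044, against 0.22 for each member alone. The error expected from the replicate spots alone was 0.034 to 0.054 per array, which leaves out variation between tumours. With normexp background correction the GLE minus model difference of this contrast was 0.085 (two-sided exact permutation p = 0.2).

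**Figure D4:**
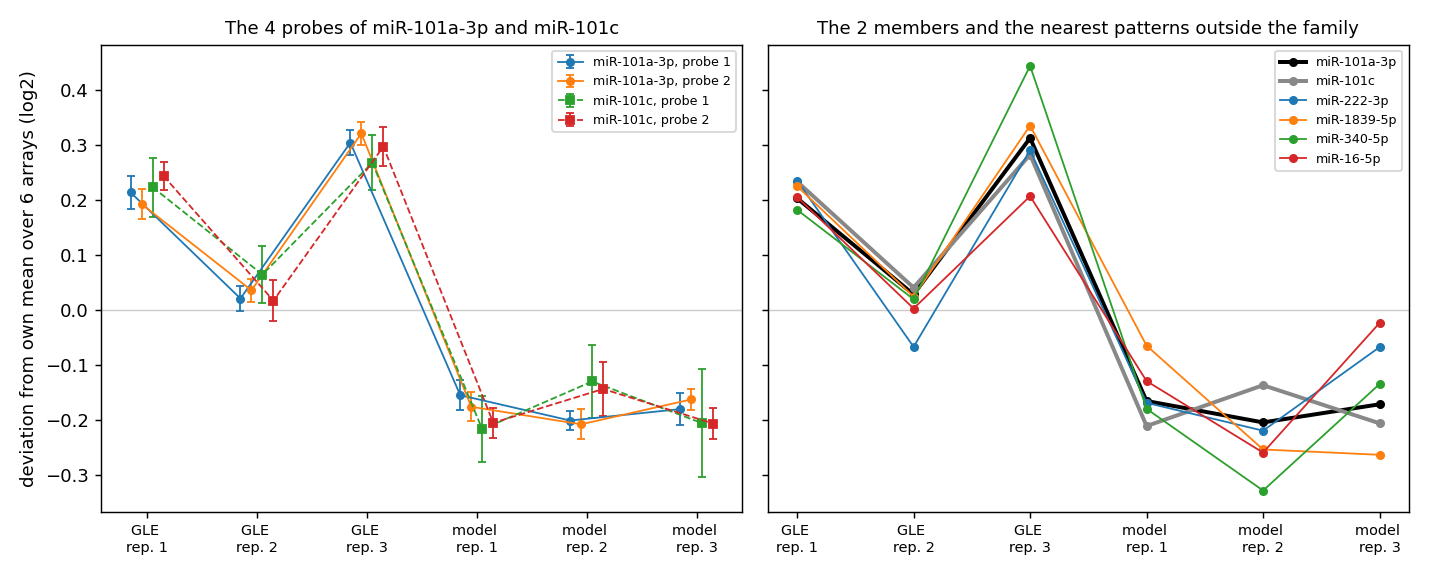
Deviations from the mean over 6 arrays (log2, y axis) are plotted by array (x axis, GLE left of model). The left panel shows the 4 probes with bars for the SE over spots, all within 0.078 of each other on each array. The right panel shows the 2 members with the nearest miRNAs outside the family, picked for likeness to the members over these arrays. All of them are higher on the 3 GLE arrays than on the 3 model arrays. For miR-222-3p this held only just (−0.0675 in GLE replicate 2 against −0.0681 in model replicate 3).

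The likeness of this pair was set beside other nested names. Among the tested miRNAs, 336 had a mature RefSeq sequence under their name, and 5 pairs of names, the miR-101 pair included, had all probes of one within the complement of the other. The root mean square difference of centred levels over the 6 arrays was 0.041 for miR-101c and miR-101a-3p. For the other 4 pairs it was 0.050 (miR-466f-3p and miR-466i-3p), 0.057 (miR-378a-3p and miR-378d), 0.094 (miR-28c and miR-28a-5p) and 0.17 (miR-3473b and miR-3473a).

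By the same measure, the tested miRNA nearest to miR-101a-3p was miR-101c, and the nearest to miR-101c was miR-101a-3p. Outside the family, miR-222-3p, miR-1839-5p, miR-340-5p and miR-16-5p were nearest to both, at 0.060, 0.061, 0.076 and 0.080 from miR-101a-3p and at 0.081, 0.083, 0.11 and 0.10 from miR-101c. Their differences were 0.31 ± 0.17, 0.39 ± 0.17, 0.43 ± 0.18 and 0.28 ± 0.16, with a limma adjusted p of 0.937 for each. They include miR-222-3p, which represses cell cycle inhibitors, and miR-16-5p, which represses cell cycle promoters.

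Other miRNAs known to repress Ezh2 were listed beside the family. Of the 6 listed, 3 were tested, and 0 passed limma's adjusted test in either direction. The median of the 3 was 0.031, against 0.0078 over all tested miRNAs. miR-26a-5p, a growth-restraining miRNA of normal liver, stood at 2.53, 2.93 and 2.29 across GLE replicates 1 to 3, set against 2.78, 2.75 and 2.50 across model replicates 1 to 3, with overlapping groups and a difference of −0.093 ± 0.21. Its relative miR-26b-5p differed by 0.031 ± 0.20. miR-214-3p, a mesenchymal miRNA that represses Ezh2 in muscle cells, differed by 0.61 ± 0.39 with overlapping groups. miR-138-5p, the neuronal miR-124-3p and the pancreatic miR-217-5p were detected on 0 arrays.

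Some miRNAs share the start of miR-101a-3p without its later bases. miR-144-3p, an erythroid miRNA, has the same bases 1 to 7, and miR-199a-3p, a mesenchymal miRNA, the same run of 6 bases 1 position earlier. Their mature sequences are shown for the seeds, in capitals.
miR-144-3p: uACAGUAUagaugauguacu
miR-199a-3p: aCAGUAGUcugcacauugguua
miR-144-3p was detected on 2 GLE and 2 model arrays and was not tested. miR-199a-3p stood at 0.76, −0.15 and 1.60 across GLE replicates 1 to 3, set against −0.10, −0.44 and 0.32 across model replicates 1 to 3, so the groups overlapped. Its difference was 0.81 ± 0.44 (limma, adjusted p = 0.937). No probe on the array carried the name miR-199b-3p, so it has no value here.

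The endothelial marker miR-126a-3p was, like the 2 members, among the 18 of 388 tested miRNAs (4.64%) with all GLE values above all model values. It stood at 1.52 to 2.00 in GLE tumours against 1.20 to 1.44 in model tumours (no adjusted call). The summed levels (log2) of the other marker lists overlapped between the groups, and 0 of their tested markers passed limma's adjusted test, but the median differences of several lists exceeded the members' differences in size (median over all miRNAs tested, 0.0078). Over all 388 tested miRNAs, 198 (51.0%) had a positive difference. Of the immune markers, 5 of 5 tested had a positive difference (median 0.84), with summed levels from 2.38 to 3.91 in GLE tumours and from 2.10 to 2.76 in model tumours. Of the fibroblast and smooth muscle markers, 4 of 5 had one (median 0.61), with sums from 0.53 to 2.09 in GLE tumours and from 0.34 to 0.94 in model tumours. Of the muscle markers, 2 of 3 had one (median 0.52), with sums from −0.33 to 1.38 in GLE tumours and from −0.996 to 0.26 in model tumours. The 2 positive muscle markers were high in GLE replicate 1 only. miR-1a-3p stood at 0.33, −1.57 and −1.60 across GLE replicates 1 to 3, set against −2.39, −1.09 and −1.22 across model replicates 1 to 3. Of the 5 epithelial markers 2 were tested and 0 had one (median −0.61), with sums from 0.11 to 2.97 in GLE tumours and from 1.49 to 2.61 in model tumours. The epithelial markers miR-200c-3p and miR-141-3p were detected on 0 arrays. Of the 3 erythrocyte markers 2 were tested and 0 had one (median −0.28), with sums from 1.53 to 3.42 in GLE tumours and from 2.06 to 3.60 in model tumours. Of the 4 hepatocyte markers 3 were tested and 2 had one (median 0.48), with sums from −0.86 to 1.38 in GLE tumours and from −0.50 to 0.29 in model tumours, and the defining miR-122-5p was detected on 1 GLE and 1 model array. The 2 positive hepatocyte markers were high in GLE replicate 2 only. miR-192-5p stood at −3.01, 0.26 and −3.46 across GLE replicates 1 to 3, set against −1.64, −2.51 and −3.69 across model replicates 1 to 3. miR-194-5p stood at −3.90, −0.97 and −4.17, set against −2.82, −3.39 and −4.26. The part of these cell types in the members' difference was not tested. The 75th percentile signal used for scaling was 269 ± 84.1 intensity units in GLE tumours, against 251 ± 54.0 in model tumours (SD, n = 3 each; two-sided exact permutation p = 0.7). Per the file headers, all 6 arrays lay on 1 slide, with the GLE arrays in row 1 and the model arrays in row 2, so slide row and group cannot be told apart.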

How the data were processed

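Tumour miRNA of 3 GLE and 3 model mice, as the titles group them, was measured on 6 one-colour arrays. Per the file headers, the authors extracted the deposited intensity values with Agilent Feature Extraction 10.7.1.1, which subtracted background and a spatial trend within an array and applied no normalisation between arrays. The authors also deposited a processed table that is on a log2 scale by comparison with the arrays (slope 1.08 to 1.16); how it was normalised and centred stays unknown. Its column medians were −3.20, −3.32 and −3.27 for GLE and −3.32, −3.17 and −3.13 for model replicates 1, 2 and 3. Each median is the column's lowest value, shared by 69.2% to 75.8% of its miRNAs, so it says nothing of the centring. The table served as an alternative.

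With limma 3.58.1 (R 4.3.3), signals were averaged per probe without control spots and the 1401 to 1883 outlier spots of an array. Division by the 75th percentile among the 636 probes that every array detected set the arrays on one scale. Values were floored at −4.26 (log2). Probes needed detection on every array of 1 group or both, and their mean gave a value for 388 miRNAs. lmFit and eBayes were tested on simulated data with differences far larger than those of the members. That test says nothing of the power at the members' size. The p-values were adjusted over all 388. Named miRNAs are the members, their opposite arms, 2 lists (Ezh2-repressing miRNAs, and miRNAs with a similar 5′ end), markers from 7 cell type lists and, per tested member, the 4 nearest patterns; pairs with nested probes were added after the values were seen. Members and lists were chosen with earlier results of these data known. Depth of an array has no count; the number of arrays limits the precision (median 95% interval ± 0.54, log2).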

Additional observations from a re-analysis of the deposited data

How the results depend on the processing

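Alternatives changed the scaling, background correction, outlier spots, filter, probe summary, floor or source of values, or added the replicate number as a block. Under these 11, the difference kept its sign for both tested members, with values from 0.17 to 0.44 for miR-101a-3p and from 0.084 to 0.45 for miR-101c, and its adjusted p stayed above 0.05. With 1 array left out it ran from 0.29 to 0.44 and from 0.32 to 0.44. The groups did not overlap in any of the 6 omissions, which follows from their separation on all 6 arrays, apart from rescaling. Without GLE replicate 2, 109 of 399 miRNAs had an unadjusted limma p under 0.05, against 6 of 388, and the adjusted p was 0.127 for miR-101a-3p and 0.124 for miR-101c. 0 miRNAs passed the adjusted threshold in any of these fits, including every omission.

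The contrast of miR-101a-3p minus miR-101c changed sign around 0, to 0.085 with normexp background correction (exact permutation p = 0.2) and to 0.033 with outlier spots kept (exact permutation p = 0.5). It ran from −0.044 to 0.012 with 1 array left out. The cause was not tested. miR-101b-3p gave no difference, since it was at the floor on all 6 arrays without the filter.

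Deviations of equal-numbered arrays correlated at −0.62, −0.18 and 0.37 across miRNAs, with no common sign. Arrays of unequal number were not compared, so these values cannot decide whether the replicate numbers pair the samples. With the replicate number as a block, the difference was 0.36 for miR-101a-3p and 0.37 for miR-101c (limma, adjusted p = 0.972 for both). In that fit 17 miRNAs had an unadjusted p under 0.05, and 0 passed. A slide block was not run, since all arrays share 1 slide.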
